A study of Mus musculus with 9 samples.

Results

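The Hedgehog signalling genes described here are Shh, Hhip, Ptch1, Smo, Gli1, Gli2 and Gli3. They were chosen by name as the core of the pathway, from the ligand to the transcription factors, and all 7 were found among the 27207 genes of the deposited table. The samples are 9 RNA-seq libraries from E18.5 mouse lungs, near the end of gestation, in 3 groups of 3. Libraries are named as in their titles, with MUT_S for strong CKO, MUT_W for weak CKO and WT for wild type. The strong CKO and weak CKO lungs both carried Tbx4-rtTA and Tet-O-Cre together with Dnmt1-D/D, a conditional knockout of Dnmt1, the methyltransferase that copies DNA methylation to newly made strands. Strong CKO lungs were small and bled widely into the tissue, weak CKO lungs were small without bleeding, and the third group was labelled wild type. The Tbx4 driver is used to reach lung mesenchyme, and which cells of these lungs lost Dnmt1 was not measured in these files. Neither the inducer nor its timing is given in the sources used here. In whole lung, fewer cells of a type and less RNA per cell cannot be told apart. Nothing in the labels says that the lungs of a group came from separate litters, and the p-values cover the spread among these lungs, whatever its source.

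In developing lung, Shh is secreted by the epithelium and binds Ptch1 on the neighbouring mesenchyme. Free Ptch1 holds Smo inactive, and binding of the ligand releases Smo, which lets Gli2 and Gli3 act as activators instead of being cut into repressors. Ptch1, Hhip and Gli1 are transcribed in response to the signal, and Ptch1 and Hhip then bind the ligand and limit its reach.

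Libraries held 25607595 to 33156732 counts. The members had between 397 counts (Gli2) and 16330 counts (Hhip) in a library, so all 7 passed the filter on low counts and none of the values rests on a handful of reads. Dnmt1 had 61.9, 78.7 and 65.1 CPM (counts scaled to library size with TMM factors) in strong CKO lungs, 59.0, 69.1 and 80.6 CPM in weak CKO lungs and 79.0, 121 and 97.1 CPM in wild type lungs. A count over the whole gene in whole lung does not measure the deletion itself. It fell by 0.53 on the log2 scale in strong CKO lungs (SE 0.17, adjusted p = 0.0433), a call lost without WT_268_1 (-0.36, adjusted p = 0.128), WT_549_2 (-0.54, 0.0929), MUT_W_268_3 (-0.52, 0.0694), MUT_S_265_5 (-0.46, 0.152) or MUT_S_860_3 (-0.49, 0.126). In weak CKO lungs the change was -0.51 (SE 0.17, adjusted p = 0.0727), and it was called without WT_265_1 (-0.65, adjusted p = 0.0264) or MUT_W_549_3 (-0.63, adjusted p = 0.04998) and with DESeq2 (-0.52, adjusted p = 0.0171). The 7 lung tissue markers were all present. Their sum, most of it Sftpc, was 8881 to 10083 CPM in strong CKO and 10382 to 11087 CPM in weak CKO lungs. In wild type lungs it was 9692 to 14225 CPM. Of the 7, 5 fell in strong CKO and 2 in weak CKO lungs, against 11% and 5.38% of all genes. Of all tested genes, 25.6% were called in strong CKO lungs and 14.5% in weak CKO lungs against wild type.

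The start sites of the 3 members with the largest changes in strong CKO lungs are shown first, because Dnmt1 acts on the CG dinucleotides of DNA. Each line gives 250 bases before and 50 bases after the RefSeq start in the GRCm38.p6 build, 5′ to 3′ on the gene's own strand, with every CG in capitals. The Hhip window lies at chr8:80057959-80058258 on the minus strand, the Gli2 window at chr1:119053570-119053869 on the minus strand and the Gli3 window at chr13:15463473-15463772 on the plus strand.
Hhip: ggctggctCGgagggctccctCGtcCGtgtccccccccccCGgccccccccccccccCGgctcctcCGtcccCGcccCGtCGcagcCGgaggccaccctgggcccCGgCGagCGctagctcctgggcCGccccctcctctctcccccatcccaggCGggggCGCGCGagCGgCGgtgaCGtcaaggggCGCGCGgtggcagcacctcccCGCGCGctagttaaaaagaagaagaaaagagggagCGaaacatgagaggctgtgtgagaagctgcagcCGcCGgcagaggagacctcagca
Gli2: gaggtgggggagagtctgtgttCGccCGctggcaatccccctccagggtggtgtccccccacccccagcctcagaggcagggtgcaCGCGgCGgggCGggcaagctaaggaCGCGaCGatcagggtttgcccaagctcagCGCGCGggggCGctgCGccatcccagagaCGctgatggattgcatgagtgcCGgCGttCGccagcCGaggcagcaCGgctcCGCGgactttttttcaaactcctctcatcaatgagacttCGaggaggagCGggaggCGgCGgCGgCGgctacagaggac
Gli3: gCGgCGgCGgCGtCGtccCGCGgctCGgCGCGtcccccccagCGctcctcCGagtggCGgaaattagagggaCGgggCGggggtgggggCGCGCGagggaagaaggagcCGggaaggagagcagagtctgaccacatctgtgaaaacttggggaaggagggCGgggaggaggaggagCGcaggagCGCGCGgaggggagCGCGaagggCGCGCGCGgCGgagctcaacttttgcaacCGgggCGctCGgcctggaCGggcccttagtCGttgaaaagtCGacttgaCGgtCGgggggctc
The Hhip window held 30 CG, the Gli2 window 28 and the Gli3 window 39, against a median of 7 (quartiles 3 and 20) over 32851 windows of the same length. Windows were found for 5 of the 7 members, and the Ptch1 window held 47 CG and that of Smo 17. The Ptch1 window, at chr13:63565686-63565985 on the minus strand, surrounds a start inside the gene. The outer 5′ end of the annotated Ptch1 span, at 63573598, lies outside this window. The binding motif of the Gli proteins, searched as GACCACCCA on both strands, was in 0 of these 5 windows and in 0.253% of all windows. Its shorter core, CCACCC on both strands, which is contained in the longer motif, occurred 2 times in the Gli2 window, 1 time each in those of Hhip, Smo and Gli3 and 0 times in that of Ptch1, and 31.5% of all windows held it. DNA methylation was not measured in these files, and these counts of letters describe the windows alone.

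Per kilobase of merged exons, Hhip was the highest member and Gli2 the lowest in each of the 3 groups. Hhip averaged 26.0 ± 5.93 CPM per kilobase in strong CKO, 34.3 ± 4.10 in weak CKO and 55.3 ± 0.696 in wild type lungs (SD, n = 3 each). Shh followed with 20.5 ± 1.56 CPM per kilobase in strong CKO, 21.1 ± 1.70 in weak CKO and 25.3 ± 0.620 in wild type lungs. Ptch1 had 18.9 ± 1.59, 18.9 ± 1.78 and 16.7 ± 1.83 CPM per kilobase in strong CKO, weak CKO and wild type lungs, and Smo 15.1 ± 0.242, 14.2 ± 0.340 and 13.4 ± 0.529. The 3 Gli genes were lower, with wild type means of 5.05 CPM per kilobase for Gli1, 3.284 for Gli3 and 2.29 for Gli2. Neighbours overlapped in part of this order. The strong CKO libraries of Hhip (20.3 to 32.1 CPM per kilobase) and Shh (18.8 to 21.9) overlapped, as did those of Shh and Ptch1 (17.1 to 19.9), whereas the 3 wild type Hhip libraries (54.6 to 55.9) lay far above those of Shh (24.6 to 25.9). The deposited RPKM gives another order, with Smo at a wild type mean of 10.9 RPKM above Ptch1 at 5.56 RPKM, because its gene length adds up the exons of every transcript. For Ptch1 that length was 38771 bases over 119 exons, 2.73 times the 14185 bases of merged exons.

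**Figure D1:**
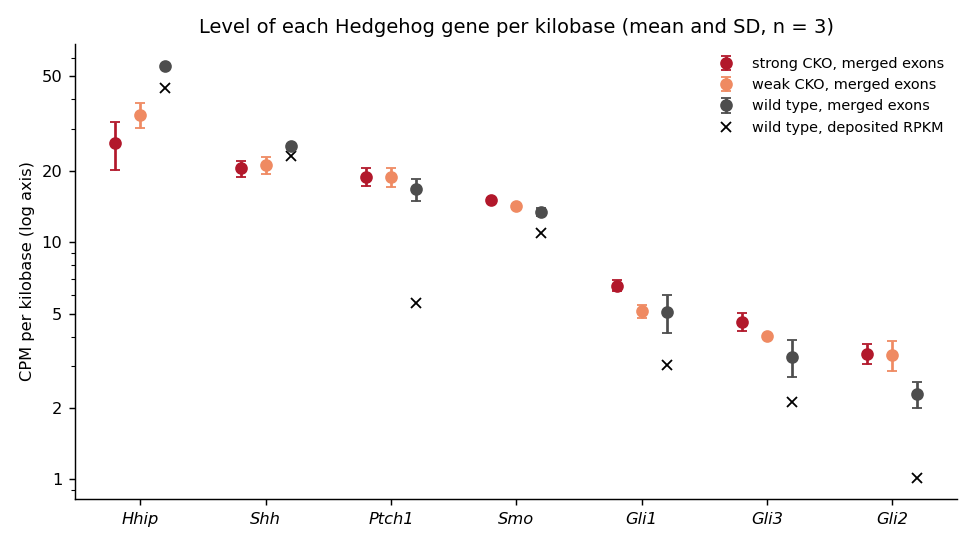
Level of each member per kilobase of merged exons (CPM per kilobase, log axis) in strong CKO, weak CKO and wild type lungs, as mean and SD of 3 libraries; crosses are the wild type means of the deposited RPKM. Hhip stands apart from the other members in wild type lungs at 55.3 CPM per kilobase, and Ptch1 is the member whose deposited value lies farthest below its merged-exon level.

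In strong CKO lungs, Shh and Hhip fell while Smo, Gli1, Gli2 and Gli3 rose, so 6 of the 7 members passed edgeR's quasi-likelihood test at an adjusted p under 0.05. Leaving out 1 library gave 2 to 5, with 2 without MUT_S_265_5 and 3 without MUT_S_860_3. With the number in the library names as a replicate block in edgeR, 3 were called. Shh (adjusted p = 0.0733), Smo (0.105) and Gli1 (0.0809) then missed the threshold. MUT_S_860_3 alone carries its number, so in the block fit it added nothing to the group differences. In weak CKO lungs 3 members passed the test without a block, Shh and Hhip lower and Gli2 higher. That number was 0 without MUT_W_268_3 and 1 without WT_549_2 or MUT_W_265_2. Read against the 25.6% and 14.5% of all tested genes above, the strong CKO genes called higher were 14.6% of all genes and the lower ones 11% of them, and in weak CKO lungs 9.09% and 5.38%. The median change of the 7 members was 0.18 in strong CKO and 0.08 in weak CKO lungs on the log2 scale, and that of all tested genes was -0.0010 and -0.0077. The libraries of the groups did not overlap for 4 members that were higher and 2 that were lower in strong CKO lungs, against 22.7% and 19% of all genes (41.7% in either direction), and for 2 and 2 in weak CKO lungs, against 17.7% and 13.8% (31.4%). All 6 CKO libraries lay above the wild type libraries for 2 members and below them for 2, as for 15.2% and 11.1% of all genes (26.3%). Both comparisons use the same 3 wild type libraries.

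Shh (ENSMUSG00000002633, chr5:28456815-28467256, minus strand) encodes the ligand. It was measured at 59.0, 62.3 and 53.5 CPM in strong CKO lungs, 58.8, 56.2 and 65.6 CPM in weak CKO lungs and 72.5, 70.2 and 73.6 CPM in wild type lungs. Every CKO library lay below the 3 wild type libraries, while the CKO groups overlapped each other. The change was -0.31 in strong CKO lungs (SE 0.08, adjusted p = 0.0158) and -0.26 in weak CKO lungs (SE 0.08, adjusted p = 0.0490), that is 1.24-fold and 1.20-fold lower than in wild type. The strong CKO call was lost without MUT_S_265_5 (-0.31, adjusted p = 0.0516) or MUT_S_860_3 (-0.24, adjusted p = 0.0731). The weak CKO call was lost on leaving out any 1 of 8 of the 9 libraries, MUT_W_549_3 being the exception (-0.28 to -0.21, adjusted p = 0.0517 to 0.195). The 12 markers of epithelium, which makes Shh, summed to 8772 to 9961 CPM in strong CKO and 10534 to 11162 CPM in weak CKO. In wild type lungs the sum was 10046 to 14194 CPM. Sftpc gave most of it, 5742 to 6892 CPM in strong CKO, 7297 to 8087 in weak CKO and 6720 to 10319 in wild type. Of the 12, 3 fell and 0 rose in strong CKO lungs, against 11% of all genes called lower and 14.6% higher. In weak CKO lungs 1 fell and 0 rose, against 5.38% and 9.09%. Changes were above 0 for 7 of the 12 in strong CKO and 8 in weak CKO lungs, with medians of 0.04 and 0.03. The part of the epithelial cells in the result was not tested. Overlapping genes on the opposite strand, Gm26894 with 361 shared exon bases and 9530036O11Rik with 446, had counts equal to 4.63% and 2.10% of those of Shh, and whether the counting used strand is not given in the sources used here.

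Hhip (ENSMUSG00000064325, chr8:79965851-80058006, minus strand), a membrane protein that binds Hedgehog ligands and keeps them from Ptch1, had the largest change of the members. It stood at 184, 292 and 234 CPM in strong CKO lungs, 296, 284 and 354 CPM in weak CKO lungs and 495, 502 and 508 CPM in wild type lungs. The wild type libraries were close together and all 6 CKO libraries lay below them, with MUT_S_265_5 the lowest and MUT_W_549_3 the highest of the CKO lungs. The level fell by 1.09 on the log2 scale in strong CKO lungs (SE 0.15, 2.12-fold lower, adjusted p = 8.05e-04). It fell by 0.69 in weak CKO lungs (SE 0.15, 1.61-fold lower, adjusted p = 0.0137). The strong CKO change kept its side of the threshold in all 18 alternatives run, with leave-one-out values of -1.26 to -0.93. The weak CKO call was lost without MUT_W_265_2 (-0.65, adjusted p = 0.0555) or MUT_W_268_3 (-0.62, adjusted p = 0.0658).

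Ptch1 (ENSMUSG00000021466, chr13:63508328-63573598, minus strand) is the receptor and is itself induced by the signal. It had 242, 283 and 279 CPM in strong CKO lungs, 288, 275 and 239 CPM in weak CKO lungs and 243, 259 and 208 CPM in wild type lungs. The groups overlapped, and Ptch1 was the 1 member not called in any comparison made here. Its change was 0.18 in both strong CKO (SE 0.10, adjusted p = 0.223) and weak CKO lungs (SE 0.10, adjusted p = 0.286), with 95% intervals of -0.05 to 0.41 in strong CKO and -0.05 to 0.40 in weak CKO lungs. The depth was 6429 to 9217 counts a library, so counting error is small beside the differences between libraries.

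The 2 ligand-binding members were also set against each other within each library. Hhip over Ptch1 was 0.760, 1.03 and 0.837 in strong CKO lungs, 1.03, 1.03 and 1.48 in weak CKO lungs and 2.04, 1.94 and 2.44 in wild type lungs. All CKO libraries lay below the lowest wild type library. With 3 libraries against 3, an exact two-sided permutation test of a single ratio cannot go below 0.1, and none was run. Hhip over Shh was 3.12 to 4.68 in strong CKO, 5.04 to 5.40 in weak CKO and 6.83 to 7.16 in wild type lungs, 3 ranges without overlap. How often ratios of other gene pairs separate the groups was not computed. Ptch1 over Shh was 4.10 to 5.22 in strong CKO lungs, above the wild type range of 2.82 to 3.68, while the weak CKO range of 3.65 to 4.90 overlapped it.

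**Figure D2:**
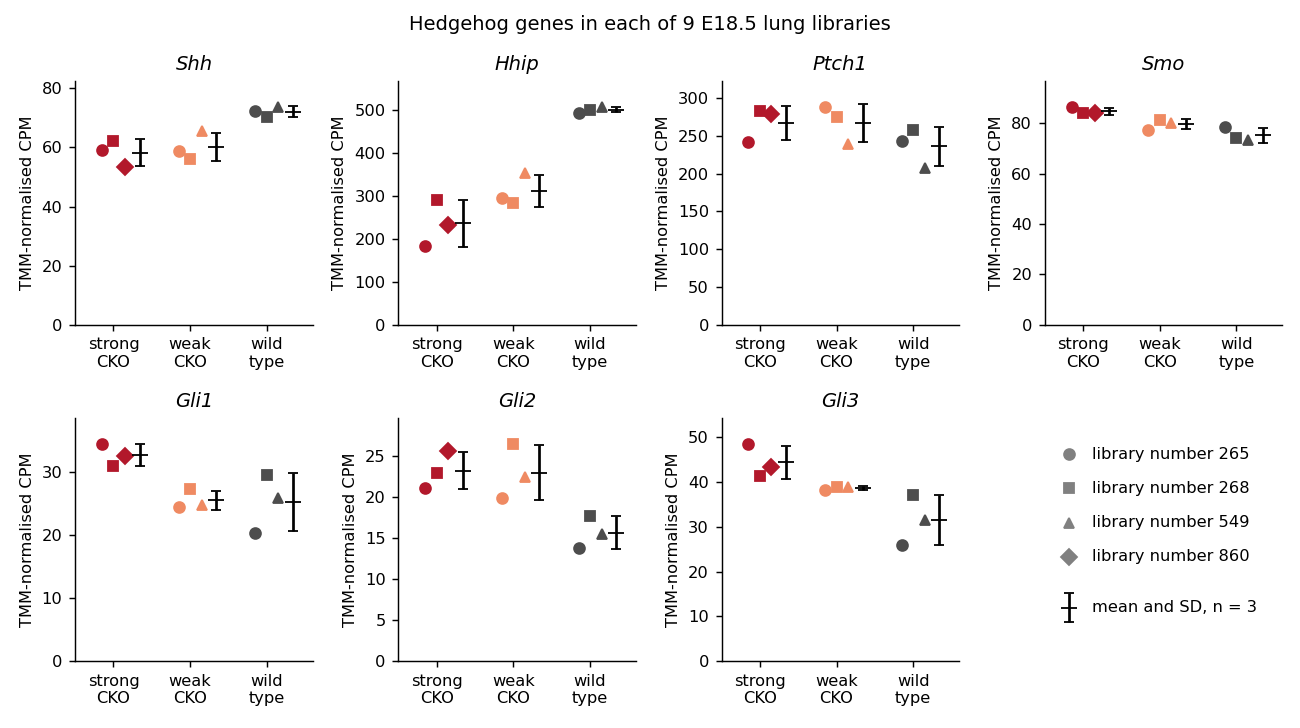
TMM-normalised CPM of the 7 members in each of the 9 libraries, by group (strong CKO, weak CKO, wild type); marker shape gives the library number in the labels, and the bars are the mean and SD of 3 libraries. Hhip shows the widest gap, with strong CKO at 184 to 292 CPM, weak CKO at 284 to 354 CPM and wild type at 495 to 508 CPM, while the groups overlap for Ptch1.

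Smo (ENSMUSG00000001761, chr6:29735503-29761365, plus strand), the membrane protein that passes the signal into the cell, varied little between libraries. It had 86.5, 84.2 and 84.0 CPM in strong CKO lungs, 77.5, 81.2 and 80.3 CPM in weak CKO lungs and 78.8, 74.1 and 73.2 CPM in wild type lungs. The strong CKO libraries lay above all others, and the weak CKO and wild type libraries overlapped. The rise in strong CKO lungs was 0.17 on the log2 scale (SE 0.05, 1.13-fold, adjusted p = 0.0427). The change in weak CKO lungs was 0.08 (SE 0.05, adjusted p = 0.380). Leaving out any 1 of 8 of the 9 libraries, WT_265_1 being the exception, ended the strong CKO call (0.15 to 0.19, adjusted p = 0.0554 to 0.116).

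Gli1 (ENSMUSG00000025407, chr10:127329882-127341974, minus strand) encodes the activator whose transcription is the usual readout of the pathway. It had 34.5, 31.0 and 32.5 CPM in strong CKO lungs, 24.4, 27.3 and 24.8 CPM in weak CKO lungs and 20.4, 29.5 and 25.8 CPM in wild type lungs. Strong CKO lungs lay above every other library, and the weak CKO libraries fell inside the wild type range. The rise in strong CKO lungs was 0.37 on the log2 scale (SE 0.12, 1.29-fold, adjusted p = 0.0447), and the change in weak CKO lungs was 0.02 (SE 0.12, 95% interval -0.25 to 0.28, adjusted p = 0.948). The strong CKO call was lost on leaving out any 1 of 8 of the 9 libraries, WT_268_1 being the exception (0.24 to 0.41, adjusted p = 0.0561 to 0.144), and the lowest value came without WT_265_1, the lowest wild type library for this gene. Arhgap9 lies tail to tail with Gli1 on the opposite strand and shares 62 exon bases with it, at 154 to 254 counts a library, equal to 24.5% of the Gli1 counts. The antisense gene Gm47200, which also shares exon bases with Gli1, was not analysed here.

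Gli2 (ENSMUSG00000048402, chr1:118834132-119053619, minus strand), the main activator downstream of Smo, was the member that rose most. Its values were 21.1, 23.0 and 25.6 CPM in strong CKO lungs, 19.9, 26.5 and 22.5 CPM in weak CKO lungs and 13.8, 17.8 and 15.5 CPM in wild type lungs. All 6 CKO libraries lay above the 3 wild type libraries, and the CKO groups overlapped each other. The rise was 0.57 in strong CKO lungs (SE 0.13, 1.48-fold, adjusted p = 0.00987) and 0.55 in weak CKO lungs (SE 0.13, 1.46-fold, adjusted p = 0.0192). In strong CKO lungs it passed the threshold in all 18 alternatives. In weak CKO lungs it did not without WT_549_2 (0.54, adjusted p = 0.0588) or MUT_W_268_3 (0.44, adjusted p = 0.0826).

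Gli3 (ENSMUSG00000021318, chr13:15463235-15730026, plus strand), whose cut form is the main repressor of the pathway, had 48.4, 41.3 and 43.2 CPM in strong CKO lungs. Weak CKO lungs had 38.1, 38.9 and 38.9 CPM and wild type lungs 26.0, 37.1 and 31.4 CPM. The 3 groups did not overlap, although the weak CKO and wild type ranges were only about 1 CPM apart. The rise in strong CKO lungs was 0.49 on the log2 scale (SE 0.12, 1.41-fold, adjusted p = 0.0114), and without MUT_S_265_5 it missed the threshold (0.43, adjusted p = 0.0533). The change in weak CKO lungs was 0.29 (SE 0.12, adjusted p = 0.123), and it was called without WT_268_1 (0.43, adjusted p = 0.0278). WT_265_1 was the lowest of the 9 libraries for Gli1, Gli2 and Gli3 alike. Transcript counts do not tell the cut and full-length forms of Gli3 apart.

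The ratio of Gli3 to Gli1 was 1.40, 1.33 and 1.33 in strong CKO lungs, 1.56, 1.42 and 1.57 in weak CKO lungs and 1.28, 1.26 and 1.21 in wild type lungs. The ranges did not overlap, with weak CKO the highest and wild type the lowest. The ratio of Gli2 to Gli1 was 0.813 to 0.971 in weak CKO lungs, above both strong CKO (0.613 to 0.787) and wild type lungs (0.600 to 0.680). These ratios of counts within a library are not per length and were not tested, nor set against ratios of other gene pairs.

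**Figure D3:**
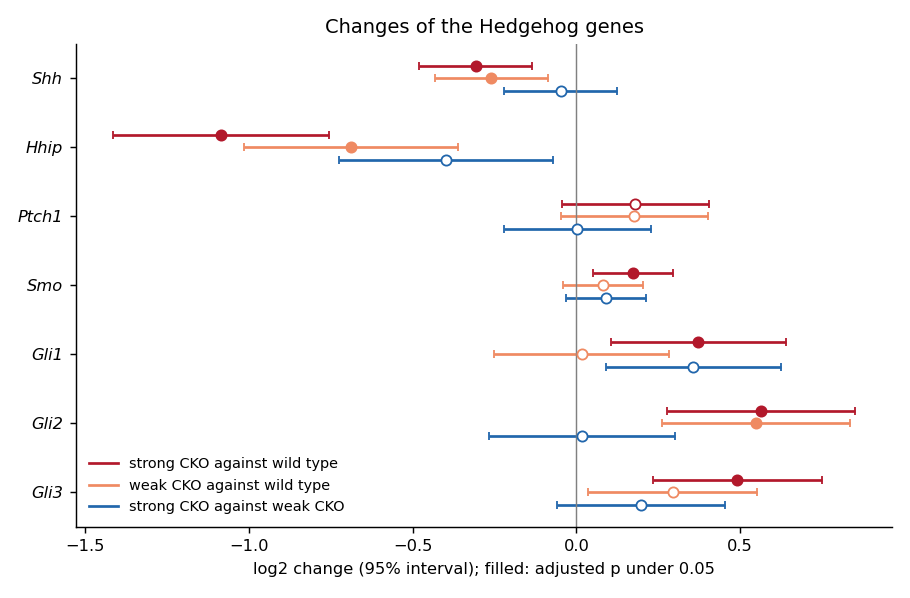
Log2 change of each member with its 95% interval for strong CKO against wild type, weak CKO against wild type and strong CKO against weak CKO; filled points have an adjusted p under 0.05 in edgeR's quasi-likelihood test. Shh and Hhip lie left of 0 and Gli2 lies right of 0 in both comparisons with wild type, and no point is filled for strong CKO against weak CKO.

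The 2 CKO groups share their genotype, and were compared directly to see whether the members differed with the bleeding phenotype. None of the 7 members was called (0 by edgeR, 0 by DESeq2 and 0 by limma on either scale of the RPKM), and over all genes 0.00516% were. Before adjustment 2 members were under 0.05 in edgeR, Hhip with a change of -0.40 (95% interval -0.72 to -0.07, adjusted p = 0.873) and Gli1 with 0.36 (0.09 to 0.62, adjusted p = 0.873). Smo, Gli1 and Gli3 were higher in all 3 strong CKO libraries than in the 3 weak CKO libraries, a pattern shown by 6.7% of all genes in that direction. The intervals of the other members ran from -0.22 to 0.13 for Shh, -0.22 to 0.23 for Ptch1, -0.03 to 0.21 for Smo, -0.27 to 0.30 for Gli2 and -0.06 to 0.45 for Gli3. With both CKO groups averaged against wild type, 4 members were called against 26.5% of all genes. Shh changed by -0.28 (adjusted p = 0.0108), Hhip by -0.89 (adjusted p = 8.39e-04), Gli2 by 0.56 (adjusted p = 0.00558) and Gli3 by 0.39 (adjusted p = 0.0171).

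Of 4 genes for co-receptors, which bind the ligand beside Ptch1 and Hhip, 4 were called higher in strong CKO and 4 in weak CKO lungs, where 14.6% and 9.09% of all genes were. Their median change was 0.66 in strong CKO and 0.69 in weak CKO lungs. The list was chosen with earlier results of these data known, so its count against all genes is not a test. Gas1, a membrane-anchored co-receptor, had 46.9, 40.4 and 50.4 CPM in strong CKO lungs, 43.7, 39.0 and 38.2 CPM in weak CKO lungs and 23.8, 18.8 and 22.7 CPM in wild type lungs. The wild type libraries were well below all CKO libraries, and Gas1 rose by 1.08 in strong CKO (SE 0.11, adjusted p = 1.31e-04) and 0.89 in weak CKO lungs (SE 0.11, adjusted p = 6.41e-04). Boc, a co-receptor of the immunoglobulin family, rose by 0.70 in strong CKO (SE 0.08) and 0.59 in weak CKO lungs (SE 0.08). Its relative Cdon rose by 0.50 in strong CKO and 0.39 in weak CKO lungs. Lrp2, a large endocytic receptor, rose by 0.62 in strong CKO and 0.79 in weak CKO lungs. Its lowest strong CKO library (45.8 CPM) lay below the highest wild type library (47.1 CPM). In weak CKO lungs the count called fell to 2 without WT_268_1 or MUT_W_268_3, and Gas1 and Boc were called in all 18 alternatives. The weak CKO calls lost on leaving out 1 library were those of Cdon without WT_268_1, WT_549_2, MUT_W_265_2 or MUT_W_268_3 (0.32 to 0.42) and Lrp2 without WT_265_1, WT_268_1 or MUT_W_268_3 (0.66 to 0.76). Lrp2 lost its call in strong CKO lungs without WT_265_1 (0.58, adjusted p = 0.101), WT_268_1 (0.51, 0.1103), MUT_S_268_4 (0.51, 0.103) or MUT_S_860_3 (0.57, 0.0961).

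Among 10 genes for other ligands and for release or transport of the ligand, the Scube family moved in both directions. Scube2, a secreted protein that helps to release Shh from the cell that makes it, had 16.4, 25.9 and 20.5 CPM in strong CKO lungs, 30.7, 26.3 and 36.2 CPM in weak CKO lungs and 68.0, 60.0 and 69.7 CPM in wild type lungs. The 3 groups did not overlap, with strong CKO the lowest. It fell by 1.65 in strong CKO lungs (SE 0.17, adjusted p = 1.52e-04) and by 1.09 in weak CKO lungs (SE 0.16, adjusted p = 0.00240), and both calls held in all 18 alternatives. Its relatives Scube1 and Scube3 rose, Scube1 by 0.63 in strong CKO and 0.58 in weak CKO lungs and Scube3 by 1.16 in strong CKO and 0.89 in weak CKO lungs. The Scube3 call in weak CKO lungs was lost without MUT_W_268_3 (0.79, adjusted p = 0.0656). Hhatl, a relative of the enzyme Hhat that adds palmitate to the ligand, rose in strong CKO lungs by 0.998 (SE 0.26, adjusted p = 0.0185) at 25 to 59 counts a library. Its call was lost without WT_268_1 (0.97, adjusted p = 0.0540), WT_549_2 (0.89, 0.0594), MUT_S_265_5 (0.83, 0.0790) or MUT_S_860_3 (0.97, 0.0574). The other ligands were scarce, with 2 to 11 counts a library for Ihh and 28 to 55 for Dhh, and neither was called.

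Between Smo and the Gli proteins, 0 of 14 kinases, scaffolds and adaptors were called in strong CKO or in weak CKO lungs by edgeR's quasi-likelihood test. Of all tested genes, 25.6% were called in strong CKO and 14.5% in weak CKO lungs. In strong CKO lungs 4 of the 14 had all libraries above wild type and 2 all below, against 22.7% and 19% of all genes. In weak CKO lungs these numbers were 1 and 0, against 17.7% and 13.8%. At an unadjusted p under 0.05 in edgeR there were 2 of the 14 in strong CKO and 1 in weak CKO lungs. With DESeq2 or limma on either scale of the RPKM, 0 were called in both groups. Csnk1a1 and Gsk3b, kinases that mark the Gli proteins for cutting and the 2 most abundant of the 14, changed by 0.04 (SE 0.06) and -0.09 (SE 0.06) in strong CKO lungs and by 0.04 (SE 0.06) and -0.07 (SE 0.06) in weak CKO lungs. Of 10 genes of the primary cilium, the organelle in which Smo acts, 3 rose and 0 fell in each CKO group, against 14.6% of all genes called higher in strong CKO and 9.09% in weak CKO lungs. Ift88, a subunit of the transport particle of the cilium, rose by 0.38 in strong CKO and 0.35 in weak CKO lungs, and Ift172 by 0.28 in strong CKO and 0.26 in weak CKO lungs. Rab23, a small GTPase that restrains the pathway, rose by 0.24 in strong CKO lungs, and Ift122 by 0.21 in weak CKO lungs. These changes were small, and the number called in weak CKO lungs was 0 without WT_549_2, MUT_W_265_2 or MUT_W_268_3 and 1 without WT_265_1, MUT_S_268_4 or MUT_S_860_3. In strong CKO lungs it was 1 without MUT_S_265_5, and Rab23 alone lost its call without WT_265_1, WT_268_1 or MUT_S_268_4 (0.22 to 0.25). Ift122 was no longer called in weak CKO lungs on leaving out any 1 of the 9 libraries (0.19 to 0.23).

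**Figure D4:**
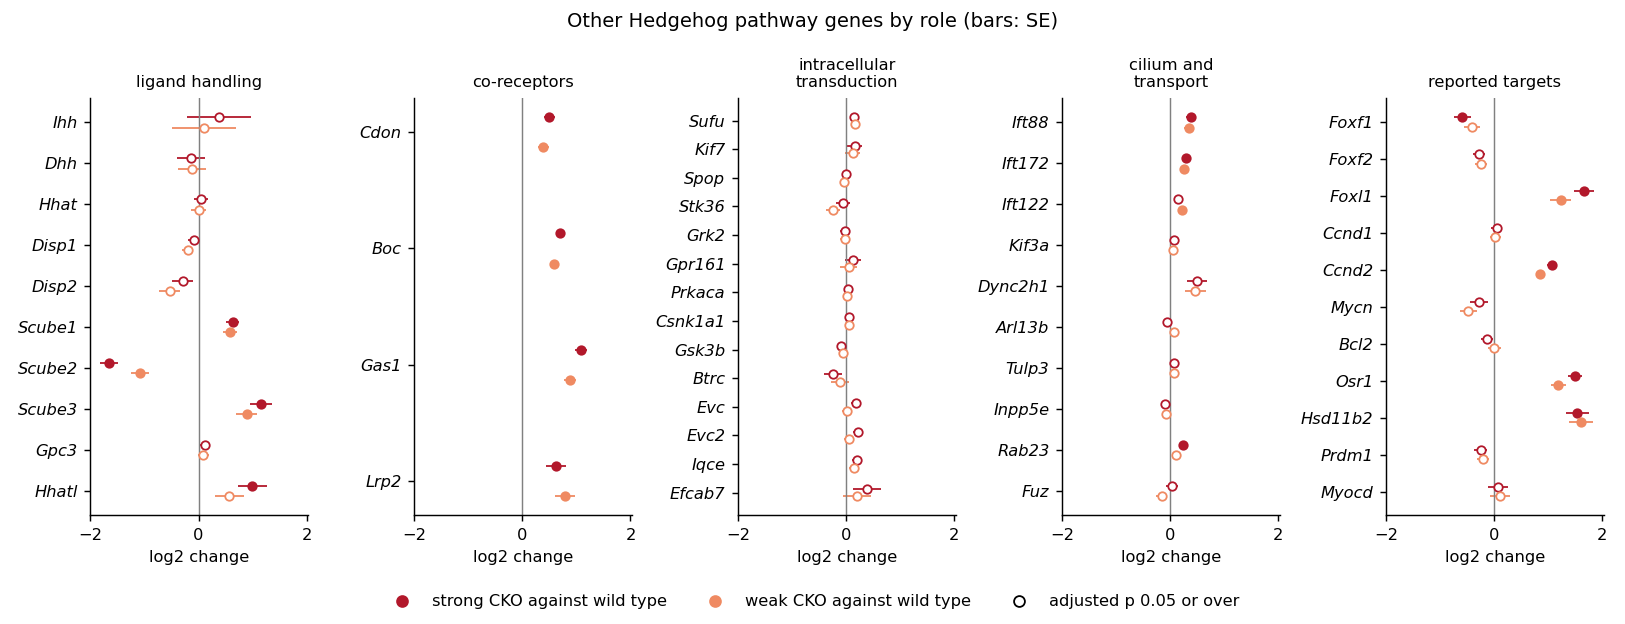
Log2 change (points, with SE bars) of the other pathway genes by role in strong CKO and weak CKO lungs against wild type; filled points have an adjusted p under 0.05. The 4 co-receptor genes lie right of 0 and filled in both comparisons, the 14 intracellular genes are open, and Scube2 lies left of 0 among the genes for ligand handling.

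Of 13 genes reported to respond to Hedgehog signal in lung or other mouse tissues, 11 were tested. In strong CKO lungs 4 rose and 1 fell, against 14.6% and 11% of all genes, and in weak CKO lungs 4 rose and 0 fell, against 9.09% and 5.38%. The medians over the 11 were 0.04 in strong CKO and 0.02 in weak CKO lungs. In strong CKO lungs 4 of the 11 had all libraries above wild type and 3 all below, against 22.7% and 19% of all genes. In weak CKO lungs these numbers were 4 and 4, against 17.7% and 13.8%. Foxl1, a forkhead factor of mesenchyme, had 7.11, 5.70 and 5.98 CPM in strong CKO lungs, 4.56, 5.22 and 4.16 CPM in weak CKO lungs and 1.53, 2.36 and 2.05 CPM in wild type lungs. The CKO libraries lay above all wild type libraries, and the rise was 1.66 in strong CKO (SE 0.19) and 1.23 in weak CKO lungs (SE 0.19). Ccnd2, a cyclin of the G1 phase, rose by 1.06 in strong CKO and 0.85 in weak CKO lungs. Osr1, a zinc finger factor of foregut mesoderm, rose by 1.49 in strong CKO and 1.19 in weak CKO lungs, and Hsd11b2, an enzyme that inactivates glucocorticoids, by 1.54 in strong CKO and 1.61 in weak CKO lungs. Foxf1, the forkhead factor of lung mesenchyme, was the 1 target called lower in strong CKO lungs, falling by 0.59 (SE 0.15, adjusted p = 0.0190). Its change in weak CKO lungs was -0.41 (adjusted p = 0.108). The weak CKO change was called without MUT_W_549_3 (-0.55, adjusted p = 0.0380) and with DESeq2 (-0.41, adjusted p = 0.0488). The strong CKO call was lost without WT_268_1 (-0.56, adjusted p = 0.0577), WT_549_2 (-0.57, 0.0590), MUT_S_265_5 (-0.47, 0.0715) or MUT_S_860_3 (-0.56, 0.0635).

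Markers of the cells that could hold these transcripts were counted and summed as well. Of all genes, 14.6% were called higher and 11% lower in strong CKO lungs, and 9.09% and 5.38% in weak CKO lungs. Of 12 mesenchyme markers, 7 fell and 3 rose in strong CKO lungs and 5 fell and 3 rose in weak CKO lungs. Their sums were 6239 to 7062 CPM in strong CKO, 6364 to 6482 in weak CKO and 5321 to 6140 in wild type lungs. Most of each sum was collagen, with wild type means of 1216 CPM for Col1a1, 1284 for Col1a2 and 1852 for Col3a1. Col1a2 and Col3a1 were called higher in both CKO groups, so the sums do not follow the markers that fell. Of 8 smooth muscle markers, 4 rose in strong CKO and 3 in weak CKO lungs, and 0 fell (434 to 697, 410 to 536 and 252 to 369 CPM in strong CKO, weak CKO and wild type lungs). Of 8 endothelial markers, 8 fell in strong CKO and 4 in weak CKO lungs (1540 to 1930, 2055 to 2145 and 2345 to 3004 CPM in strong CKO, weak CKO and wild type lungs). Nerve and Schwann cell markers, of which 4 of 6 tested rose in strong CKO and 3 in weak CKO lungs, summed to 11.8 to 14.8 CPM in strong CKO, 9.97 to 12.2 in weak CKO and 7.97 to 8.36 in wild type lungs. Red cell markers summed to 6760 to 12686 CPM in strong CKO, 3775 to 4391 in weak CKO and 3948 to 7396 in wild type lungs, with 1 of 9 called, lower, in each CKO group. Of the mesothelial markers 1 of 5 rose in each CKO group (598 to 1059, 538 to 974 and 614 to 1381 CPM in strong CKO, weak CKO and wild type lungs), and of 5 tested cartilage markers 1 rose and 1 fell in each (18.2 to 21.6, 18.1 to 22.7 and 20.8 to 29.0 CPM in strong CKO, weak CKO and wild type lungs). The red cell, mesothelial and cartilage sums of both CKO groups overlapped those of wild type. No listed marker was at 0 in all libraries. The part of these cell types in the changes of the Hedgehog genes was not tested.

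Across the 9 libraries, which share 3 groups, Pearson's r of log2 CPM was used to describe which members and other genes varied alike. Gli1 and Gli3 had an r of 0.868, and 0.943 once each group's mean was taken away. Hhip and Shh had 0.882, and 0.521 without the group means, and Hhip and Gli3 had -0.849, and -0.328 without the group means. Among 12997 genes, those most like Hhip were Gnao1 (0.994), Adamts17 (0.993) and Naalad2 (0.992), and those most like Shh were Taf4 (0.972), Pdk2 (0.969) and Cavin1 (0.968). Gli2 was closest to Lrrc17 (0.982), Irak1bp1 (0.975) and Usp29 (0.974), and Gli3 to Xlr3a (0.984), Psrc1 (0.980) and Polh (0.978). Gli1 was closest to Nop56 (0.959), Troap (0.945) and Orc1 (0.927), Smo to Psmd13 (0.961), Klhdc8a (0.958) and Gars (0.952), and Ptch1 to Lrpprc (0.968), Dock8 (0.963) and Ccdc171 (0.953). These values are a description, and differences between the groups are part of them.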

How the data were processed

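Per the file headers, the authors deposited 1 table with raw counts, RPKM values and a gene length for 9 libraries. The RPKM deposited by the authors uses a length that, in 96.4% of 27197 annotated genes, equals the exons of every transcript added up plus 1 per exon. Per the submitters' processing notes, the build was GRCm38.p6, and STAR, Trimmomatic 0.36, cutadapt 2.5, FastQC 0.11.8 and edgeR 3.28.1 are named without their roles. No source used here gives the counter, its annotation or its use of strand.

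Counts were tested with edgeR 4.0.16 in R 4.3.3: TMM factors, filterByExpr by group, a quasi-likelihood model with robust dispersion and 1 mean per group over the 9 libraries, and two-sided tests adjusted by Benjamini-Hochberg over 19374 genes, called at an adjusted p under 0.05. Adjusted p-values in the text come from this fit unless another tool or setting is named. SE is the change divided by the root of F. Levels per kilobase use merged exons of GENCODE M21, which also gave the gene coordinates on GRCm38, and promoters come from RefSeq. Alternatives used DESeq2 1.42.0, limma 3.58.1 on log2(RPKM + 1) and log2(RPKM + 0.1), other scalings and filters, the compared groups alone, a library number block and each library left out. The fit was tested on simulated data.

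The members and gene lists were chosen with earlier results of these data known. Named were the members, Dnmt1 and called genes of each pathway list (the 2 most abundant where none was called). Markers that made up most of a sum and genes sharing exon bases with a member were named too. So were the 3 genes with the highest r to each member. Besides those given for Shh and Gli1, Gm6556 shares 188 exon bases with Gli3 and had counts equal to 2.89% of those of Gli3. Gm27820, absent from the deposited table, shares 175 exon bases with Hhip. No 2 libraries of a group agreed within counting noise (lowest chi-square per degree of freedom 13.2), so none was merged as a repeat of another. A pathway gene was left out of the lists and their counts and is not reported here.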

Additional observations from a re-analysis of the deposited data

How the results depend on the processing

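Alternatives numbered 18 per comparison with wild type. In strong CKO lungs Hhip and Gli2 passed the threshold in all of them, and Ptch1 in none. Smo in strong CKO lungs was no longer called with RLE size factors (0.16), without a filter (0.18), with only the groups compared (0.18) or with DESeq2 (0.16), and Gli1 not with only the groups compared (0.38). Leaving out 1 library at a time gave strong CKO changes of -0.35 to -0.24 for Shh, 0.15 to 0.21 for Smo, 0.24 to 0.50 for Gli1 and 0.37 to 0.63 for Gli3, and 2 to 5 members called. In weak CKO lungs Shh was no longer called with upper quartile factors (-0.24), without a filter (-0.25), with only the groups compared (-0.26) or with limma on log2(RPKM + 1) (-0.24) or log2(RPKM + 0.1) (-0.25). Leaving out 1 library gave weak CKO changes of -0.33 to -0.21 for Shh, -0.79 to -0.62 for Hhip, -0.12 to 0.14 for Gli1, 0.44 to 0.65 for Gli2 and 0.17 to 0.43 for Gli3, and 0 to 3 members called. Between strong CKO and weak CKO the leave-one-out values crossed 0 for Shh (-0.096 to 0.019), Ptch1 (-0.071 to 0.072) and Gli2 (-0.077 to 0.14). The cause of these differences was not tested.

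The labels give library numbers shared between groups. Deviations of same-numbered libraries correlated with r of -0.09 to 0.35, over 0.1 in 4 of 7 pairs, and 6 of 8 libraries correlated best with their own number, a hint of shared structure from the data. Since 3 pairs were not over 0.1 and the labels do not say what the numbers mark, the block was kept as an alternative. MUT_S_860_3 was the only library with its number, so the block fit drew no group difference from it. Leaving that library out of the fit without a block gave 3 members called in strong CKO lungs. With the number as a replicate block, 3 members were called in strong CKO lungs as well, and Shh (-0.21), Smo (0.17) and Gli1 (0.39) missed the threshold. Lrp2 missed it in strong CKO (0.59, adjusted p = 0.153) and weak CKO lungs (0.79, adjusted p = 0.0555), Dnmt1 (-0.50, adjusted p = 0.00867) and Foxf1 (-0.42, adjusted p = 0.0172) were called in weak CKO lungs, and 1 intracellular gene was called in weak CKO lungs and 1 in both CKO groups averaged, where limma on log2(RPKM + 1) also called 1. With both CKO groups averaged, the block called 8 of the reported targets, where the fit without it called 5. Under the replicate block Shh (0.053), Ptch1 (-0.11) and Gli2 (-0.057) changed sign between strong CKO and weak CKO. Without MUT_S_860_3 and without the block, these 3 members changed sign as well (0.014, -0.025 and -0.055). The Dnmt1 call in strong CKO lungs was lost with upper quartile factors (-0.51), without a filter (-0.52), with only the groups compared (-0.53) and with both limma fits (-0.38 and -0.49). The number of all genes called was 3101 to 5311 in strong CKO and 1310 to 3926 in weak CKO lungs across the alternatives. Depth did not limit the members, which had 397 counts or more in each library.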
